A study of Mus musculus with 64 samples.

Results

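The expression of 10 genes of the monocyte lineage was followed across 4 progenitor populations of the fetal mouse liver and 3 genotypes of Smarcd2, which encodes a subunit of BAF chromatin remodelling complexes. The genes were Ly6c2, F13a1, Fcgr1, Ccr2, Ms4a6c, Clec7a, Clec5a, Trem2, Trem3 and Ccl9. They were chosen with earlier results of these data known, so the shares of all genes beside their counts are no test. They were taken by name, through their Ensembl identifiers, from the deposited read counts, which list 38924 genes in all. LSK, CMP and GMP counts list 10 of the 10 genes. The MEP counts list 7, and Fcgr1, Trem2 and Trem3 were not analysed here in MEP. The 64 libraries came from C57BL/6 fetuses at 13 to 14 days post coitum, except 1 heterozygous CMP library labelled 14.5. Genotypes were wild type (WT), heterozygous (HET) and homozygous knockout (KO) for Smarcd2, and no other allele or treatment is named in the labels. LSK cells (lineage negative, Sca-1 and c-Kit positive, CD45.2 positive, Mac1 low or positive) gave 5 WT, 9 HET and 9 KO libraries from fetuses of known sex. Common myeloid progenitors (CMP, CD34 positive, CD16/32 intermediate) gave 3 WT, 7 HET and 4 KO libraries. Granulocyte-monocyte progenitors (GMP, CD34 positive, CD16/32 high) gave 3 WT, 7 HET and 3 KO libraries. Megakaryocyte-erythroid progenitors (MEP, CD34 low, CD16/32 low) gave 3 WT, 7 HET and 4 KO libraries. Sex was not determined outside LSK, and the gate labels write CD177 where the staining lists CD117 (c-Kit). The labels do not state that libraries of a group came from separate fetuses, and p-values here reflect only how libraries of a group varied.

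Monocytes arise from myeloid progenitors through a branch shared with neutrophils, and these genes mark its members at different stages. Ly6C, CCR2 and the high-affinity IgG receptor are classical surface markers of inflammatory monocytes. C-type lectins and TREM receptors sense microbial or lipid ligands. Clec5a and the TREM receptors signal through the adaptor DAP12 (Tyrobp), and Fcgr1 through the Fc receptor gamma chain (Fcer1g). Both adaptors lead to the kinase Syk. Some of the genes are shared with neighbouring cell types: F13a1, Fcgr1 and Trem2 are also expressed by tissue macrophages, and Clec5a and Trem3 by neutrophil precursors.

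The genes lie on 8 chromosomes. Sequence upstream of the start sites was read from the RefSeq promoter table (GRCm38.p6), which matched 9 of the 10 genes (Trem3 had no entry). Each entry spans 250 bases before to 50 bases after a start, and the last 150 bases before the start are printed 5′ to 3′ on the gene's strand. The stretches of 5 genes that were lower together in CMP of KO fetuses are shown because they share GAGGAAG, the core of a purine-rich site bound by the ETS factor PU.1, searched on both strands and set in capitals together with TGANTCA, the AP-1 core. The 5 are Ly6c2 (chr15:75111972-75112121, minus strand), F13a1 (chr13:37050245-37050394, minus), Fcgr1 (chr3:96293970-96294119, minus), Clec5a (chr6:40585806-40585955, minus) and Trem2 (chr17:48346251-48346400, plus). Ccr2 (chr9:124102033-124102182, plus) follows as a gene that did not fall, and it holds neither core in this stretch. Of the other genes that did not pass in CMP, Ms4a6c and Clec7a hold neither core and Ccl9 holds TGANTCA. Trem3 fell too but could not be read. A link between these letters and the fall was not tested.
Ly6c2: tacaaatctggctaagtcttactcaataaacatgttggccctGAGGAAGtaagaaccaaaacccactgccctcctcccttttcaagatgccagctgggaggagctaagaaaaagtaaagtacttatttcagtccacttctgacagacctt
F13a1: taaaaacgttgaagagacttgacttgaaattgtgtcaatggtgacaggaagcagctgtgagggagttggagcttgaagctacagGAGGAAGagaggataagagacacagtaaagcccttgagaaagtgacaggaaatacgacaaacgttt
Fcgr1: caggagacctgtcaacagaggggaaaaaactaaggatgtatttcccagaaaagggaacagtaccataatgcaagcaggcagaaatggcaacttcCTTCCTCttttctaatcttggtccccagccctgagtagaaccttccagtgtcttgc
Clec5a: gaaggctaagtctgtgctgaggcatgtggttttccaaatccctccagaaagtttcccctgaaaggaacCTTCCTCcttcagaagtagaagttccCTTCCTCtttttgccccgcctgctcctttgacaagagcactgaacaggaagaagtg
Trem2: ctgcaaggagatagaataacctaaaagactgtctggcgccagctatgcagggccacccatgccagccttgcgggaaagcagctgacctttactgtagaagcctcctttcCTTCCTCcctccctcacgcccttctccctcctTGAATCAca
Ccr2: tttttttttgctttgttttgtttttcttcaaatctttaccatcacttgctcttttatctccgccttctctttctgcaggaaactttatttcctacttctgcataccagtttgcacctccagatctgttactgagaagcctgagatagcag

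GAGGAAG was found in at least 1 promoter window of 5 of the 9 genes. Counted by window, 7 of the 12 windows of these genes held it, against 13.6% of the 32851 windows in the table. Windows of a gene can overlap, as those of Ly6c2 do, so the same copy can count more than once. The share of all genes with such a window was not counted. TGANTCA was found for Trem2 and Ccl9 (7.81% of all windows), GGAA and GAAA separated by 2 bases of any kind, a composite of ETS and IRF cores, for Clec7a (2.72%), and TTGCNNAA, the C/EBP core, for Trem2 (10.8%), outside the printed stretch. The match is a description of these letters and not a binding site. Among the 10 genes, Clec7a is annotated as a polymorphic pseudogene in GENCODE M21 and the others as protein coding. Ly6c2 lies 59327 bases from its near copy Ly6c1, and 13.9% of the 50-base stretches in its transcripts also occur in Ly6c1, so reads from those stretches could have been left uncounted or assigned to either gene. Of the Ms4a6c stretches, 49.6% also occur in BE692007, an overlapping transcript on the opposite strand. The libraries carry no strand, so reads from those stretches cannot be told apart.

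Levels are given as CPM, the reads of a gene relative to the total reads of its library after TMM scaling (trimmed mean of M values). The scaling was done within each population. The library titles carry series numbers, and those of LSK differ from those of CMP, GMP and MEP. LSK levels were not modelled with the others, and population and series cannot be told apart there. Gene reads per library ran from 4327582 to 24069833 in LSK, from 1577073 to 8092644 in CMP, from 1006090 to 6300070 in GMP and from 1488328 to 5646315 in MEP. Smarcd2, the targeted gene, reached at most 1.94 (LSK), 1.47 (CMP), 1.06 (GMP) and 1.79 (MEP) CPM in KO libraries. Its lowest WT level was 49.4, 91.2, 84.8 and 84.0 CPM in the same order, so the KO labels matched their libraries. The HET libraries numbered 8 stood apart in CMP, GMP and MEP, with median correlations with the other libraries of 0.767, 0.392 and 0.835. The 3 GMP KO libraries had 2.52 to 3.06% of reads on spike-in RNAs, against 0.00912 to 0.394% in the other GMP libraries. The part of the spike-in share in the results was not tested beyond its use as a covariate. In GMP, fits with this covariate cannot separate the share from KO. In bulk samples, fewer cells of a type and less RNA per cell cannot be told apart. Among 16 fetal liver macrophage markers, summed levels ran from 49.95 to 1640 CPM in LSK.

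In WT cells Ly6c2, which encodes a GPI-anchored surface protein, was a GMP gene. Its level was 153 ± 36.6 CPM in GMP (SD, n = 3) and 19.32 ± 4.43 CPM in CMP (SD, n = 3). It was 0.619 ± 0.245 CPM in MEP (SD, n = 3) and 0.542 ± 0.546 CPM in LSK (SD, n = 5), where 14 reads were counted over the 5 libraries. The MEP and LSK libraries overlapped, but LSK came from other series and was not tested against MEP. The GMP and CMP libraries did not overlap. Trem3, a TREM family receptor, followed the same order, with 116 ± 41.1 CPM in GMP (SD, n = 3), 12.3 ± 3.70 in CMP (SD, n = 3) and 0.202 ± 0.233 in LSK (SD, n = 5). Clec5a, a DAP12-coupled lectin, had 442 ± 162 CPM in GMP, 145 ± 25.9 in CMP and 3.42 ± 2.28 in MEP (SD, n = 3 each), and 7.62 ± 3.28 in LSK (SD, n = 5).

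Ccr2, the receptor for the chemokine CCL2, was highest in CMP. It had 155 ± 11.7 CPM in CMP, 13.9 ± 11.3 in GMP and 6.30 ± 2.99 in MEP (SD, n = 3 each), and 19.13 ± 7.59 in LSK (SD, n = 5). The GMP libraries overlapped those of MEP and of LSK. The highest MEP library had 9.42 CPM and the lowest LSK library 10.1 CPM, but LSK came from other series and was not tested against MEP. Fcgr1, the high-affinity IgG receptor, had 19.42 ± 3.64 CPM in CMP, 5.75 ± 3.11 in GMP (SD, n = 3 each) and 11.5 ± 6.92 in LSK (SD, n = 5). F13a1, the A subunit of coagulation factor XIII, was high in 3 populations, with 461 ± 113 CPM in CMP, 355 ± 145 in GMP (SD, n = 3 each) and 199 ± 128 in LSK (SD, n = 5). It was at 8.92 ± 3.601 CPM in MEP (SD, n = 3). Ccl9, a CC chemokine, was the most even of the 10 outside MEP, with 171 ± 31.1 CPM in CMP, 99.1 ± 25.0 in GMP (SD, n = 3 each) and 88.0 ± 21.08 in LSK (SD, n = 5), and 6.90 ± 3.55 in MEP (SD, n = 3).

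Compared per kilobase of exon, the leading genes changed between the stages. In WT CMP, F13a1 (68.4 CPM per kb), Ms4a6c (58.1) and Ccl9 (56.3) led, while Fcgr1 (7.50), Ly6c2 (7.05) and Trem2 (1.29) were lowest. In WT GMP, Trem3 (117 CPM per kb) and Clec5a (115) led, followed by Ly6c2 (55.7) and F13a1 (52.7), and Fcgr1 (2.22), Ccr2 (2.06) and Trem2 (0.588) were lowest. In GMP of KO fetuses the order was headed by Ms4a6c (129 CPM per kb), Ccl9 (47.5) and Trem3 (45.8), with Clec5a at 8.12 and Ly6c2 at 0.372.

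In a joint model of the 3 progenitor populations, CMP of WT fetuses were compared with MEP for the 5 genes that also passed the read filter in MEP alone. All 5 were higher in CMP (3.1% of all genes passed in either direction). F13a1 was 48.4-fold higher (log2 5.60 ± 0.79 SE, adjusted p = 7.16e-06) and Ccr2 23.0-fold higher (log2 4.53 ± 0.66 SE, adjusted p = 1.19e-05). GMP were higher than MEP for 4 of the 5 (6.95% of all genes passed). Clec5a was 146-fold higher there (log2 7.19 ± 0.76 SE, adjusted p = 1.20e-08). Ly6c2 and Clec7a, with 5 and 16 reads over the 3 WT libraries of MEP, entered this model through their levels in CMP and GMP, and their differences are not counted. Ccr2 did not pass between GMP and MEP (log2 1.27 ± 0.63 SE, adjusted p = 0.274).

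In CMP, 6 of the 10 genes were lower in KO than in WT, and none was higher. Over all 11658 genes tested 1.84% passed, 0.823% as lower. The median log2 fold change of the 10 was -1.81, against -0.01 over all genes. The 10 were chosen with earlier results of these data known, so this contrast is no test of the set. The 6 were Ly6c2, Clec5a, Fcgr1, Trem3, F13a1 and Trem2. All KO libraries lay below all WT and all HET libraries for each of the 6. In this population 7.56% of all genes had all KO libraries below all WT libraries, and 1.15% had them below all WT and all HET libraries.

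Ly6c2 had the steepest drop. The WT libraries had 20.99, 14.3 and 22.7 CPM and the KO libraries 0.909, 0.446, 3.01 and 0.919 CPM, from 3, 2, 8 and 5 reads. The KO libraries were all far below the lowest WT library. Ly6c2 was 16.1-fold lower (log2 -4.01 ± 0.38 SE, adjusted p = 8.13e-06, edgeR quasi-likelihood test). Within the series numbers that the library titles carry, WT exceeded KO 19.41-fold in series 32 (2 WT, 1 KO) and 50.8-fold in series 33 (1 WT, 1 KO). Series 34 held KO libraries only.

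The Fc receptor and the TREM receptors fell with it. Fcgr1 had 16.2, 18.7 and 23.4 CPM in WT and 2.73, 4.46, 3.77 and 4.96 CPM in KO, and was 4.71-fold lower (log2 -2.23 ± 0.28 SE, adjusted p = 0.000178). The gap between the groups was wider than the spread in either. Trem3 had 15.9, 8.53 and 12.4 CPM in WT and 0.909, 1.56, 3.39 and 2.21 CPM in KO, and was 6.22-fold lower (log2 -2.64 ± 0.36 SE, adjusted p = 0.000435). Trem2, a lipid receptor of macrophages and microglia, had 4.66, 6.88 and 7.56 CPM in WT and 0.909, 0.446, 0.753 and 0.551 CPM in KO, each KO value from 2 or 3 reads. It was 9.41-fold lower (log2 -3.23 ± 0.69 SE, adjusted p = 0.0162). That call was lost when WT 5, WT 12, KO 11 or KO 15 was left out (adjusted p from 0.0551 to 0.0738), with the title series as a block (adjusted p = 0.0862) and with the spike-in share as a model term (adjusted p = 0.0622).

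Clec5a and F13a1 were the abundant genes that fell. Clec5a had 168, 117 and 150 CPM in WT and 36.7, 45.3, 59.1 and 47.8 CPM in KO, and was 3.09-fold lower (log2 -1.63 ± 0.20 SE, adjusted p = 0.000109). F13a1 had 336, 556 and 490 CPM in WT and 129, 101, 127 and 103 CPM in KO, and was 4.01-fold lower (log2 -2.003 ± 0.31 SE, adjusted p = 0.0014). For both genes the highest KO library stayed below the lowest WT library. Macrophage marker sums, which cover 9 listed markers in CMP, were 51.9 to 61.8 CPM in WT and 48.9 to 80.1 CPM in KO. Hepatocyte marker sums were 332 to 863 CPM in WT and 40.6 to 152 CPM in KO, and their part in the result was not tested.

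The other 4 genes did not pass in CMP. Ccr2 had 142, 164 and 160 CPM in WT and 325, 245, 264 and 213 CPM in KO. All 4 KO libraries lay above all WT libraries, as for 8.97% of all genes. The log2 fold change was 0.75 ± 0.21 SE with an adjusted p of 0.0827. Ccr2 passed as higher in only 4 of 16 alternatives, among them without HET 8 (adjusted p = 0.0404), by DESeq2 (adjusted p = 0.0147) and by limma (adjusted p = 0.00309). In the other alternatives its adjusted p reached 0.418. Ms4a6c, a membrane protein of the MS4A family, had overlapping groups of 100 to 146 CPM in WT and 95.4 to 160 CPM in KO (log2 0.15 ± 0.19 SE, adjusted p = 0.798). Clec7a, the beta-glucan receptor Dectin-1, had 90.9 to 149 CPM in WT and 79.7 to 99.4 CPM in KO (log2 -0.30 ± 0.20 SE, adjusted p = 0.578). Ccl9 had 144 to 205 CPM in WT and 123 to 241 CPM in KO (log2 0.22 ± 0.20 SE, adjusted p = 0.705).

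**Figure D1:**
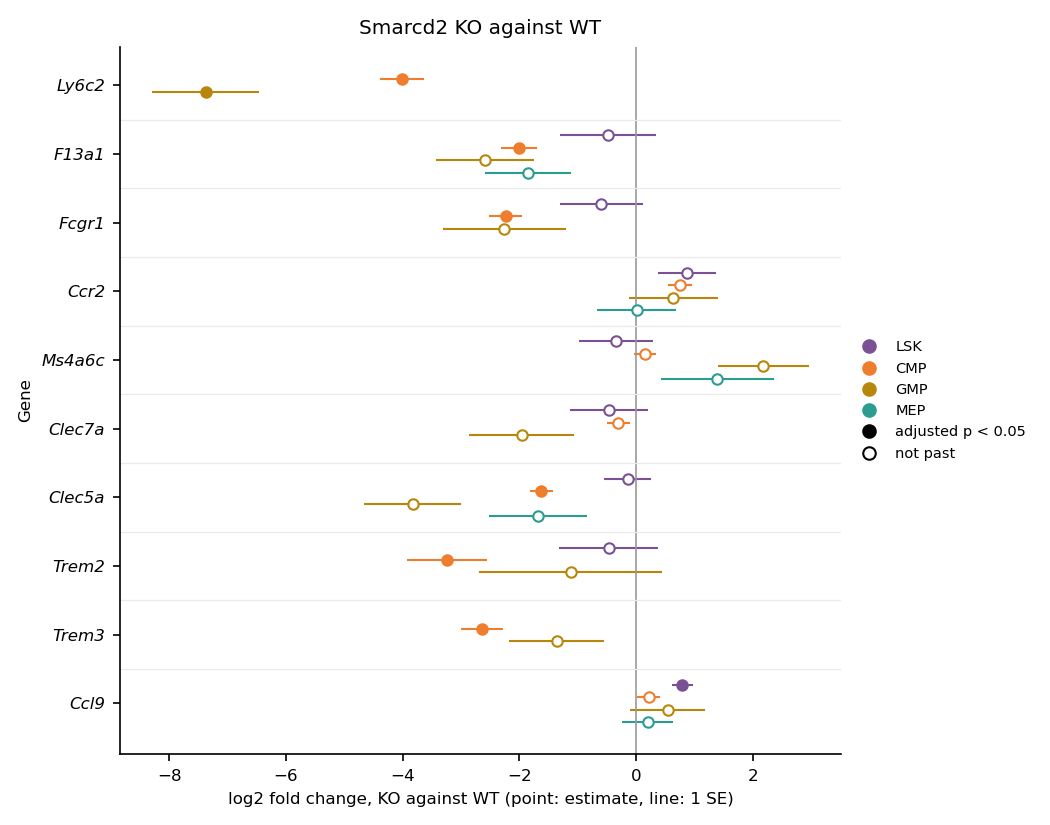
Log2 fold change of KO against WT (x axis) for each gene and population; points are edgeR estimates, lines 1 SE, and filled points passed at an adjusted p of 0.05. Filled points on the left are Ly6c2 in CMP and GMP and 5 more genes in CMP; the filled point on the right is Ccl9 in LSK, at 0.80.

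Against HET, the same 6 genes were lower in KO CMP and Ccr2 was higher (2.19% of all genes passed). Ly6c2 was 8.76-fold lower (log2 -3.13 ± 0.36 SE, adjusted p = 7.12e-05), and Ccr2 2.07-fold higher (log2 1.05 ± 0.17 SE, adjusted p = 0.00164). These 7 calls were also made without HET 8. In that library Trem2 stood at 33.7 CPM, against 5.01 to 8.12 CPM in the other 6 HET libraries. This comparison and KO against WT share the KO libraries. Between HET and WT none of the 10 genes passed in CMP (edgeR: 0% of all genes, 296 at an unadjusted p under 0.05). Ly6c2 had 7.85 to 14.2 CPM in the 7 HET libraries (median 10.5), all below the lowest WT library at 14.3 CPM, as for 0.746% of all genes. The log2 fold change was -0.88 ± 0.27 SE with an unadjusted p of 0.00385 and an adjusted p of 0.999. Fcgr1 (log2 -0.72 ± 0.23 SE), Clec5a (log2 -0.53 ± 0.17 SE) and Trem3 (log2 -0.64 ± 0.29 SE) had HET libraries that overlapped WT, and also had unadjusted p-values under 0.05 and adjusted p-values of 0.999.

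In GMP, Ly6c2 alone of the 10 genes passed in KO against WT (0.204% of all 12239 genes passed, 0.163% as lower). The WT libraries had 186, 159 and 113 CPM, and the KO libraries had 0.395, 2.48 and 0.188 CPM from 2, 7 and 1 reads. The highest KO library lay far below the lowest WT library. Ly6c2 was 167-fold lower (log2 -7.38 ± 0.91 SE, adjusted p = 0.00154), and 116-fold lower than in HET (log2 -6.85 ± 0.87 SE, adjusted p = 0.00218; 0.261% of all genes passed). Of the 7 HET libraries the lowest had 20.46 CPM, the median 101 and the highest 153. The lowest was HET 8, with 7 reads. Within series 32, WT exceeded KO 435-fold (2 WT, 1 KO). With the title series as a block the adjusted p was 0.0700. With the share of spike-in reads added to the model, the log2 fold change was -9.17 (adjusted p = 0.00192). All KO libraries had a higher share than all other GMP libraries, so this fit cannot separate the share from KO.

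The other 9 genes had wide spreads in GMP. Clec5a had 255, 520 and 550 CPM in WT and 15.02, 62.9 and 15.6 CPM in KO, without overlap. Its log2 fold change was -3.83 ± 0.83 SE (14.2-fold lower) with an adjusted p of 0.102. It passed in 6 of 15 alternatives, among them without HET 8 (adjusted p = 0.0264), without KO 13 (adjusted p = 0.0245) and by DESeq2 (adjusted p = 7.85e-06). F13a1 had 522, 271 and 272 CPM in WT and 30.4, 87.0 and 60.1 CPM in KO, again without overlap (log2 -2.59 ± 0.84 SE, adjusted p = 0.462). In HET it ranged from 55.5 to 527 CPM with a median of 435, so that 2 of the 7 HET libraries were at the KO level. Clec7a had 27.5, 46.1 and 52.2 CPM in WT and 0.198, 18.4 and 14.1 CPM in KO (log2 -1.96 ± 0.91 SE, adjusted p = 0.764). Groups without overlap and with KO lower made up 8.36% of all genes in GMP.

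Ms4a6c had higher values in KO than in WT without passing. It had 31.5, 81.2 and 61.3 CPM in WT and 218, 137 and 438 CPM in KO, all above the highest WT library, as for 5.83% of all genes. Its log2 fold change was 2.18 ± 0.78 SE with an adjusted p of 0.557. The HET libraries of this gene spanned 17.5 to 209 CPM and reached into both groups. Fcgr1 (log2 -2.25 ± 1.05 SE, adjusted p = 0.769), Trem3 (-1.36 ± 0.81, 0.800), Trem2 (-1.12 ± 1.57, 0.886), Ccr2 (0.64 ± 0.76, 0.871) and Ccl9 (0.54 ± 0.64, 0.871) had overlapping groups. The sum of 12 basophil, mast cell and eosinophil markers was 2865 to 17784 CPM in the KO GMP libraries and 1063 to 2041 CPM in WT. In HET this sum was 272 to 10102 CPM, from below the WT range into the KO range. Ear1 and Ear2, the genes of this list that passed in GMP, were lower in KO. The neutrophil granule marker sum was 13094 to 24270 CPM in KO and 13286 to 34331 CPM in WT, and that of 15 listed macrophage markers 79.6 to 163 and 77.5 to 114 CPM. Their part in these results was not tested. Between HET and WT no gene of the 10 passed (edgeR: 0% of all genes, 61 at an unadjusted p under 0.05), while limma with quality weights called 7.

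From CMP to GMP the genes moved in different directions, and the genotypes were compared for this step. In WT, Ly6c2 was 9.66-fold higher in GMP (log2 3.27 ± 0.54 SE, adjusted p = 0.00085) and Trem3 11.4-fold higher (log2 3.52 ± 0.68 SE, adjusted p = 0.00457). Ccr2 was 9.67-fold lower (log2 -3.27 ± 0.57 SE, adjusted p = 0.0016). Clec5a was 3.69-fold higher without passing (log2 1.88 ± 0.54 SE, adjusted p = 0.102). These were 3 of 10 genes called, against 1.02% of all genes. Without CMP WT 5, the Trem3 call was lost (adjusted p = 0.0791). In HET, 4 of the 10 passed (4.55% of all genes): Ly6c2 (log2 3.68 ± 0.36 SE), Trem3 (3.66 ± 0.46) and Clec5a (1.78 ± 0.35) were higher and Ccr2 (-2.47 ± 0.36) was lower. The same 4 passed with HET 8 left out of both populations, and in WT Clec5a then passed too.

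In KO, 3 of the 10 passed (16.8% of all genes). Trem3 was 29.0-fold higher in GMP (log2 4.86 ± 0.68 SE, adjusted p = 4.04e-05), Ccr2 9.91-fold lower (log2 -3.31 ± 0.54 SE, adjusted p = 0.000261) and Clec7a 6.84-fold lower (log2 -2.77 ± 0.62 SE, adjusted p = 0.00552). Ly6c2 did not pass in KO, with 0.446 to 3.01 CPM in CMP and 0.188 to 2.48 CPM in GMP (log2 -0.21 ± 0.73 SE, adjusted p = 0.855). Neither did Clec5a, with 36.7 to 59.1 CPM in CMP and 15.02 to 62.9 CPM in GMP (log2 -0.33 ± 0.50 SE, adjusted p = 0.648). The difference between the KO effects of the 2 populations was tested directly. None of the 10 passed (edgeR: 0.00795% of all genes, 634 at an unadjusted p under 0.05). Ly6c2 had the smallest p of the 10 (log2 difference -3.48 ± 0.90 SE, adjusted p = 0.200). Its KO libraries held 18 reads in all in CMP and 10 in GMP. Both KO groups were thus near the floor, and the size of this difference is limited by depth. Ly6c2 passed in 2 of 21 alternatives, by DESeq2 (adjusted p = 0.00808) and without GMP KO 13 (log2 difference -4.92, adjusted p = 0.00334), and limma gave 0.797. Without GMP KO 13, Clec5a passed too (log2 difference -3.18, adjusted p = 0.0138).

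**Figure D2:**
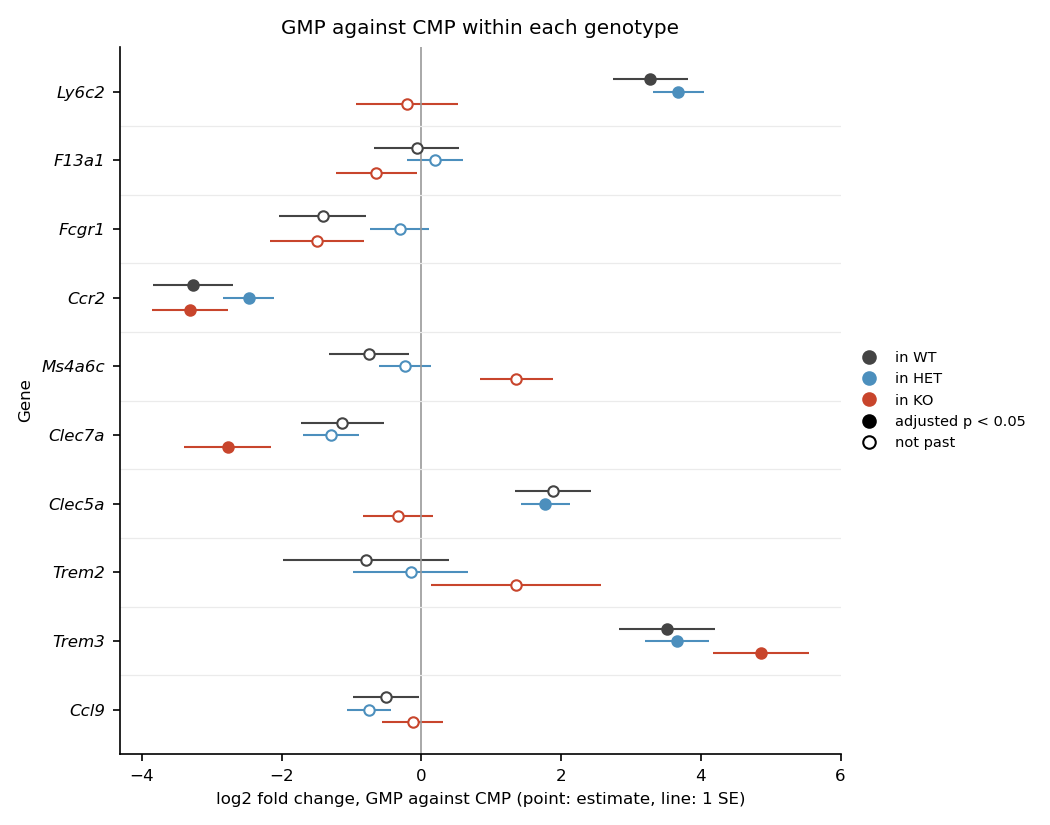
Log2 fold change of GMP against CMP (x axis) for each gene within WT, HET and KO; points are edgeR estimates, lines 1 SE, and filled points passed at an adjusted p of 0.05. The WT and HET points of Ly6c2 lie at 3.27 and 3.68 and the KO point at -0.21, while Ccr2 lies left of 0 and Trem3 right of 0 in each genotype.

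In LSK, Ccl9 alone passed among the 8 genes with enough reads to be tested (18.8% of all 13878 genes passed, 9.53% as higher). That is 1 of 8, close to the share of all genes. Ly6c2 and Trem3 were below the read filter, with 6 and 4 reads over the 9 KO libraries. Ccl9 had 52.4, 91.0 and 105 CPM as the lowest, median and highest of 5 WT libraries, and 99.3, 153 and 201 CPM in 9 KO libraries. Of the KO libraries, 8 lay above the highest WT library, as did 6 of the 9 HET libraries. The share of all genes with such a separation was not counted. Ccl9 was 1.74-fold higher than in WT (log2 0.80 ± 0.18 SE, adjusted p = 0.00354) and 1.44-fold higher than in HET (log2 0.52 ± 0.15 SE, adjusted p = 0.0229; 11.1% of all genes passed). It passed against WT in each of 24 alternatives (adjusted p up to 0.0439). Against HET it missed with limma (adjusted p = 0.0534) and without a read filter (adjusted p = 0.0580). Within series 19, 21 and 24 each KO library exceeded each WT library. How many of all genes did so was not counted. In series 22 the WT library had 103 CPM and the 3 KO libraries ran from 99.3 to 201 CPM.

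F13a1, Fcgr1 and Trem2 varied over more than an order of magnitude among LSK libraries. F13a1 had 48.4, 147 and 333 CPM as the lowest, median and highest WT library and 10.2, 62.6 and 405 CPM in KO (log2 -0.48 ± 0.83 SE, adjusted p = 0.731). Fcgr1 had 5.56, 7.84 and 22.52 CPM in WT and 1.41, 3.22 and 26.3 CPM in KO (log2 -0.60 ± 0.71 SE, adjusted p = 0.610). Trem2 had 3.83, 7.44 and 20.7 CPM in WT and 0.566, 3.45 and 26.6 CPM in KO (log2 -0.47 ± 0.85 SE, adjusted p = 0.750). Over the 23 libraries the log2 level of these genes ran with the log2 sum of the 16 macrophage markers, with Pearson correlations of 0.976, 0.968 and 0.965. The same libraries gave 0.843 for Ms4a6c, 0.754 for Clec5a, 0.641 for Clec7a, -0.194 for Ccl9 and -0.226 for Ccr2. These are descriptions of libraries that share their depth and their sort, and carry no p-value. Between HET and WT none of the 8 genes passed in LSK (edgeR: 0.00721% of all genes, 1532 at an unadjusted p under 0.05). The marker sum ran from 49.95 to 141 CPM in series 19 and from 775 to 1117 CPM in series 24.

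Within the title series, F13a1 had KO means below WT in the 4 series that held both genotypes. They were 22.1 against 48.4 CPM in series 19, 41.3 against 140 in series 21, 270.2 against 331 in series 22 and 311 against 333 in series 24. Series 19, 22 and 24 each held 1 WT library, and the 3 KO libraries of series 22 ran from 112 to 405 CPM. How many of all genes had lower KO means in each series was not counted. With the series as a block the log2 fold change of F13a1 was -1.001 (adjusted p = 0.0614), and that of Trem2 was -0.87 (adjusted p = 0.121). Fcgr1 had 5.56 CPM in the WT library and 1.41 to 1.84 CPM in the KO libraries of series 19, 7.65 to 7.84 and 2.52 to 3.22 CPM in series 21, and 22.52 and 12.8 CPM in series 24. In series 22 the WT library (14.0 CPM) lay within the KO range (5.17 to 26.3 CPM). With the series as a block, Fcgr1 passed as lower (log2 -0.98, adjusted p = 0.0240). With the macrophage marker sum as a covariate its log2 fold change was -0.30 (adjusted p = 0.504), while Ccl9 kept 0.78 (adjusted p = 0.00677). The sum itself had medians of 430 CPM in WT, 254 in HET and 172 in KO. Its ranges overlapped, with 141 to 1108 CPM in WT and 49.95 to 1640 CPM in KO. The covariate thus differed in median between the genotypes, and its part in the Fcgr1 result was not tested further. Ccr2 (log2 0.87 ± 0.50 SE, adjusted p = 0.241), Ms4a6c (-0.34 ± 0.63, 0.753), Clec7a (-0.46 ± 0.66, 0.675) and Clec5a (-0.14 ± 0.40, 0.847) had overlapping groups in LSK.

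**Figure D3:**
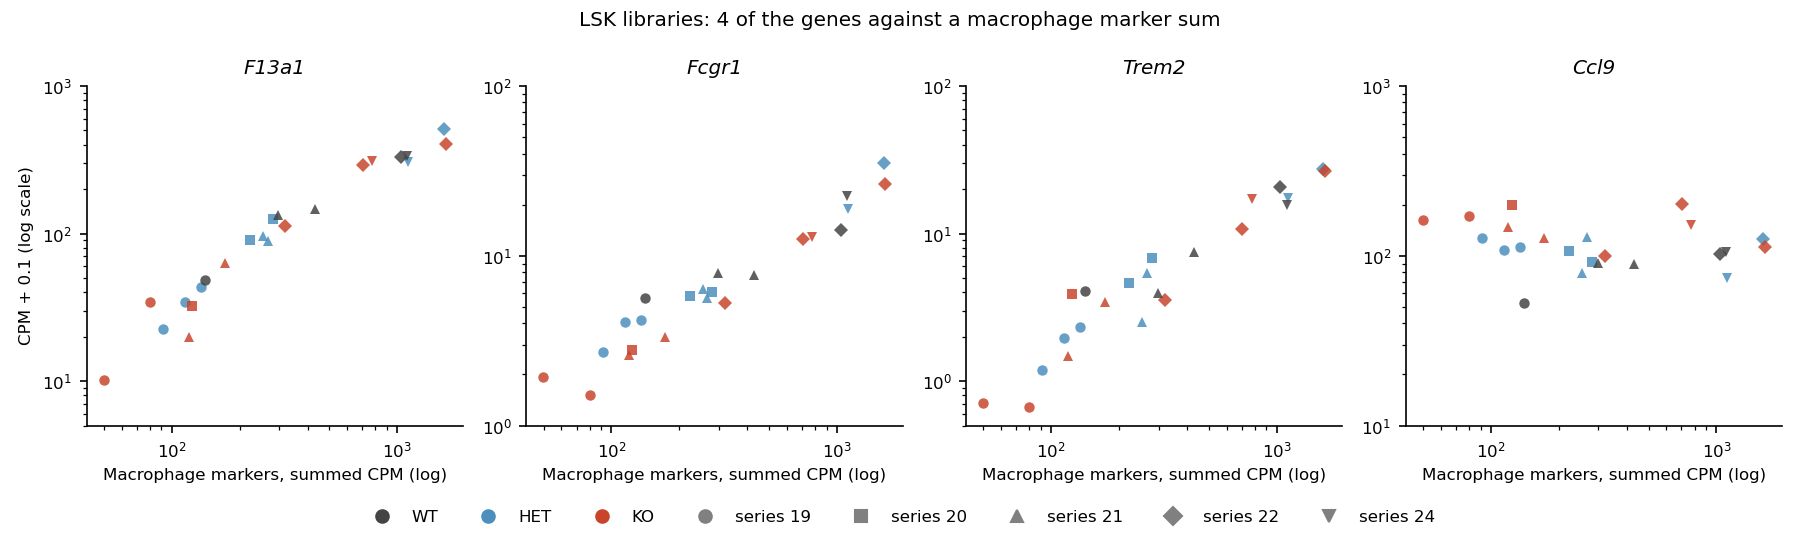
CPM plus 0.1 of F13a1, Fcgr1, Trem2 and Ccl9 (y axes, log) against the summed CPM of 16 macrophage markers (x axis, log) in the 23 LSK libraries, with genotype by colour and title series by shape. The first 3 genes run along a line with the marker sum, and Ccl9 does not, with most KO points above the WT points.

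In MEP the 5 genes with enough reads were at 0 to 19.9 CPM, and none passed in KO against WT (edgeR: 0.00856% of all genes, 809 at an unadjusted p under 0.05; limma called F13a1). F13a1 had 4.99, 12.1 and 9.73 CPM in WT and 1.10, 2.77, 1.69 and 4.26 CPM in KO. The groups did not overlap (log2 -1.84 ± 0.74 SE, adjusted p = 0.660), as for 5.96% of all genes with KO lower. None of the 5 passed between KO and HET (edgeR: 0.0171% of all genes, 845 at an unadjusted p under 0.05) or between HET and WT (0%, 89 at that level). Clec7a and Ly6c2 were listed but below the filter, with Ly6c2 at 5 reads over the 3 WT libraries and 5 reads over the 4 KO libraries.

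Paralogs and adaptors of these genes were read in the same comparisons, from lists of family neighbours and signalling partners. Of 20 paralogs and family neighbours tested in CMP, 4 were higher and 2 lower in KO (median log2 -0.09), where 1.84% of all genes passed. The chemokine Ccl3 was 4.12-fold higher (log2 2.04 ± 0.28 SE, adjusted p = 0.000441) and the receptor Cd300lb 2.51-fold higher. The inhibitory lectin Clec12a (log2 -1.09 ± 0.18 SE, adjusted p = 0.00258) and Ms4a6d (log2 -1.21 ± 0.24 SE, adjusted p = 0.0108) were lower, the latter beside Ms4a6c at 0.15. In GMP, where 0.204% of all genes passed, 1 of 20 did, namely Ly6c1. It had 23.2 ± 4.90 CPM in WT and 0.862 ± 0.949 CPM in KO (SD, n = 3 each; log2 -4.66 ± 0.90 SE, adjusted p = 0.0374), and its call is uncertain because of the stretches it shares with Ly6c2. In LSK, Cd300lb and Ccl4 were higher among 23 tested, a share close to the 9.53% of all genes that were higher.

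Of the signalling partners in CMP, the adaptor Tyrobp, which pairs with Clec5a and the TREM receptors, was at 110 ± 13.2 CPM in WT (SD, n = 3) and 142 ± 34.2 CPM in KO (SD, n = 4; adjusted p = 0.421). Fcer1g, which carries the Fcgr1 signal, was at 126 ± 19.7 and 119 ± 20.2 CPM (adjusted p = 0.922). None of 19 partners passed in GMP (edgeR). In LSK, where 9.53% of all genes were higher, 6 of 23 were higher, among them Syk (log2 0.43 ± 0.09 SE, adjusted p = 0.00205).

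Other monocyte genes gave mixed counts, beside 1.84% of all genes called in CMP. Of 16 monocyte transcription factors tested in CMP, Id2 was lower (log2 -1.38 ± 0.31 SE, adjusted p = 0.0243) and none was higher. Irf8, which drives monocyte fate, had a log2 fold change of 0.66 ± 0.24 SE (adjusted p = 0.209) in CMP and -2.33 ± 0.53 SE (adjusted p = 0.143) in GMP. Of 18 surface receptors in CMP, Itgam (log2 1.84 ± 0.20 SE, adjusted p = 3.86e-05) and Cd33 (log2 1.16 ± 0.24 SE, adjusted p = 0.0152) were higher and none was lower. Of 23 secreted and lysosomal genes 5 were lower, led by the thiol reductase Ifi30 (log2 -1.61 ± 0.21 SE, adjusted p = 0.000297) and the protease Ctsc (log2 -1.32 ± 0.21 SE, adjusted p = 0.0014). In the same list 2 were higher, among them fibronectin, Fn1 (log2 2.26 ± 0.36 SE, adjusted p = 0.0016). In GMP none of the 12 transcription factors, 19 receptors and 22 secreted and lysosomal genes tested passed (edgeR). In LSK the counts were 3 of 17, 4 of 20 and 3 of 21, each as higher, beside 9.53% of all genes.

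Markers of neighbouring cell types were counted for KO against WT, where 1.84% of all genes passed in CMP, 0.204% in GMP and 18.8% in LSK. Of 7 neutrophil granule markers tested in CMP, 3 were lower in KO, namely Ctsg (log2 -2.68 ± 0.18 SE, adjusted p = 7.31e-08), Elane and S100a8. In GMP, 3 of 13 were lower, namely S100a9, S100a8 and Camp. Of 7 dendritic cell markers in CMP, H2-DMa (log2 1.41 ± 0.25 SE, adjusted p = 0.00441) and Flt3 (log2 1.28 ± 0.25 SE, adjusted p = 0.00776) were higher. Among basophil, mast cell and eosinophil markers Mcpt8 was lower and Siglecf higher in CMP, and Ear1 and Ear2 were lower in GMP. In LSK, 5 of 8 dendritic cell markers were higher, Folr2 alone was lower of 11 macrophage markers and Ctsg alone of 6 neutrophil granule markers. No macrophage marker passed in CMP (of 6 tested) or GMP (of 10), and no erythroid marker in any population (edgeR). Of 14 hepatocyte markers, Apoh was lower in CMP and none passed in GMP.

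Across the 27 CMP and GMP libraries, the genes whose log2 level was most like that of Ly6c2 were S100a8 (Pearson r = 0.961), Clec5a (0.935), Hvcn1 (0.921), S100a9 (0.917), App (0.910), Slc22a4 (0.905), Gca (0.904) and Tmx4 (0.896), out of 11527 genes whose mean log2 CPM was 1 or more, leaving out predicted genes. Without the HET 8 libraries these values ran from 0.897 to 0.965. The libraries share the population and genotype differences described above, so the values carry no p-value. Among the 10 genes, Trem3 (0.659) and F13a1 (0.635) came next after Clec5a. Fcgr1 (0.387), Trem2 (0.232) and Clec7a (0.0770) were in between, and Ccl9 (-0.375), Ms4a6c (-0.551) and Ccr2 (-0.613) ran against Ly6c2. Over the 13 GMP libraries alone Trem3 had 0.320 and Clec7a 0.681.

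**Figure D4:**
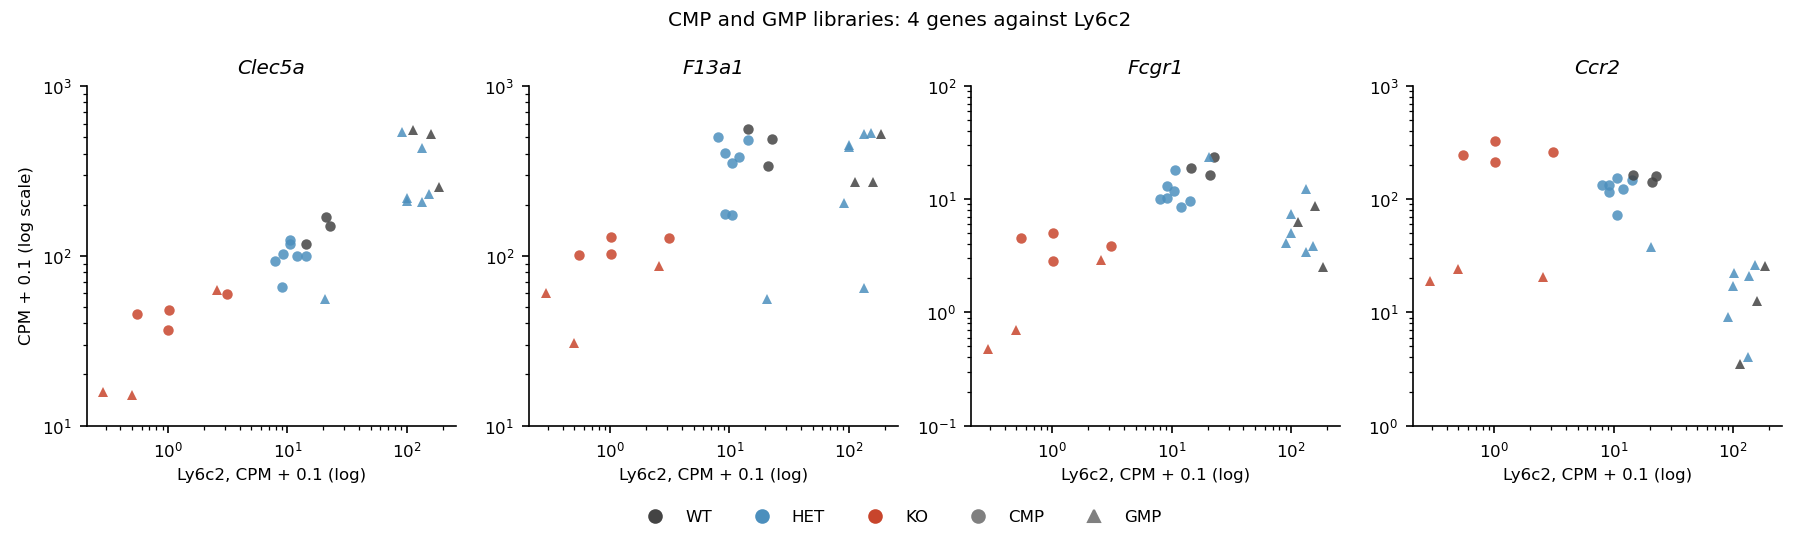
CPM plus 0.1 of Clec5a, F13a1, Fcgr1 and Ccr2 (y axes, log) against Ly6c2 (x axis, log) in the CMP (circles) and GMP (triangles) libraries, coloured by genotype. Clec5a rises with Ly6c2 across genotypes and populations, and Ccr2 splits into CMP libraries at 72.4 to 325 CPM and GMP libraries at 3.42 to 38.0 CPM.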

How the data were processed

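Smart-seq2 libraries prepared with Nextera XT carry neither strand nor molecular identifiers, per the labels' protocols. The deposited values are read counts per Ensembl gene. The submitters' processing notes name featureCounts and the build mm10. An aligner and an annotation release were not stated in the labels. Spike-in entries stayed out of library sizes and tests. The deposited tables for CMP, GMP and MEP list fewer genes than LSK (15790, 27892 and 13050 against 38924). Each population was fitted with edgeR 4.0.16 (R 4.3.3): TMM scaling, filterByExpr with a minimum count of 10 and a minimum total of 15, and a robust quasi-likelihood test with 3 genotypes in 1 model. P-values were adjusted over all genes tested by Benjamini-Hochberg, with a threshold of 0.05, and standard errors were derived from the log2 fold change and the F statistic. Populations were compared in joint models of 12585 genes (CMP and GMP) and 11829 genes (with MEP). Alternatives were RLE scaling, no filter, a filter of 2 CPM, DESeq2 1.42.0, limma 3.58.1 with voom quality weights, 2 groups only, the title series as a block, sex in LSK, a replicate block, and each library left out. Runs without HET 8, with the spike-in share and with the macrophage marker sum as covariates were chosen after seeing the data. The scripts were tested on simulated data.

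The members and gene lists were chosen with earlier results of these data known. All 10 genes are reported in each population. Of each other list up to 4 genes past the threshold are named, by smallest p; 1 result among the signalling partners is not reported here. Exceptions named for their role, after their values were seen, are Irf8, Tyrobp and Fcer1g. The genes nearest to Ly6c2 are the 8 with the highest correlation of log2 CPM (prior count 2).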

Additional observations from a re-analysis of the deposited data

Results flagged for a closer look

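In groups of 4 to 10 libraries, 6 of 74 groups of these genes had 1 library whose gap to the rest passed Dixon's 95% limit. Chance gives about 1 in 20. Trem2 had 33.7 CPM in CMP HET 8, against 5.01 to 8.12 CPM in the other 6 HET libraries, and 55.5 CPM in GMP HET 8, against 1.01 to 4.17 CPM. Fcgr1 had 35.2 CPM in the LSK HET library of series 22, against 2.60 to 18.7 CPM in the other 8, and 26.3 CPM in 1 of the 3 LSK KO libraries of series 22, against 1.41 to 12.8 CPM. In series 22 the macrophage marker sums ran from 319 to 1640 CPM. Clec7a had 17.6 CPM in the LSK KO library of series 24, against 1.03 to 6.97 CPM. Ms4a6c had 19.9 CPM in MEP KO 15, against 0.735 to 2.93 CPM in the other 3 KO libraries.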

How the results depend on the processing

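In CMP KO against WT, Ly6c2, F13a1, Fcgr1, Clec5a and Trem3 passed in 16 of 16 alternatives. Counts below are of the 10 genes. With limma, counts were 0 in LSK KO against HET, 2 in GMP KO against WT, 3 in GMP KO against HET, 7 in GMP HET against WT, 1 in MEP KO against WT, and 7 (WT) and 10 (HET) from CMP to GMP. DESeq2 gave 3 in GMP KO against WT, 4 against HET, and 1 for the difference of KO effects. The title series as a block gave 2 in LSK KO against WT, 3 against HET, and 0 in GMP KO against WT and against HET. GMP KO against WT had 2 without a filter and 4 with the spike-in share. Leaving out 1 library gave 1 to 2 in GMP KO against WT and against HET, 0 to 2 for the difference of KO effects and 3 to 5 from CMP to GMP in KO (5 without GMP KO 13). The causes were not tested.

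Some log2 values changed sign. In LSK KO against WT, the macrophage sum gave 0.13 for Ms4a6c, 0.17 for Clec7a and 0.11 for Clec5a. The spike-in share gave 0.20 for F13a1, -0.020 for Ccr2 and 0.35 for Trem2. In CMP KO against WT, the series block gave -0.078 for Ms4a6c and -0.11 for Ccl9. In GMP KO against WT, Trem2 was 0.84 with the series block and 2.70 with the spike-in share, Ms4a6c -0.39 and Ccl9 -2.32 (adjusted p = 0.0267) with the latter. From CMP to GMP in HET, Trem2 was 0.16 with RLE and 0.38 with DESeq2.

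With each library left out in turn, in LSK KO against WT Clec7a ran from -0.94 to 0.0055, Ms4a6c ran from -0.71 to 0.12, Clec5a ran from -0.38 to 0.11, from CMP to GMP in WT F13a1 ran from -0.54 to 0.10, in HET Trem2 ran from -1.94 to 0.31, and in KO Ly6c2 ran from -1.66 to 0.44, Trem2 ran from -1.13 to 1.82, Ccl9 ran from -0.41 to 0.027.

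Same-numbered CMP and GMP libraries were not treated as paired, since the labels do not tie a number to a fetus and not every pair's deviations correlated over 0.1. Of 13 pairs 9 did, and 9 correlated best with their own number, a hint of pairing from the data. The replicate block gave 3 (WT), 4 (HET) and 3 (KO) from CMP to GMP, 0 for the difference of KO effects, 6 for GMP and 7 for CMP against MEP (Ly6c2 and Clec7a included), and F13a1 -0.074 from CMP to GMP in HET. Over all genes, CMP KO against WT had 215 calls, 83 with the series block, 772 with limma and 504 without HET 8. GMP had 25, 3 with the series block, 1696 with the spike-in share and 222 without KO 13. With 1 to 8 reads per KO library, the size of the Ly6c2 drop is limited by depth.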
